A study of Drosophila melanogaster with 54 samples.

Results

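The genes described here encode the Drosophila epidermal growth factor receptor and the proteins that act on it outside the cell. The list named 8 genes: the receptor Egfr (CG10079), the ligand spi (CG10334), the protease gene rho, the ligand-trafficking gene S (CG4385), the ligand vn, and the inhibitor or inhibitor-related genes aos (CG4531), kek1 (CG12283) and kek5 (CG12199). Every probe set annotated to a single one of these genes was taken; the rule uses no measured value, although the genes were listed with earlier results of these data known. This left 6 genes with 7 probe sets, of 10844 genes and 13966 tested probe sets in the series. Egfr has 2 probe sets, 151735_at and 142966_at, which are given separately throughout. The others are 143573_at for spi, 143330_at for S, 143483_at for aos, 141473_at for kek1 and 145366_at for kek5. The genes rho and vn were not analysed here.

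The 54 arrays, of the Affymetrix type DrosGenome1, form 18 groups with 3 arrays each. All embryos, wild type included, carried twi-GAL4 and UAS-GFP, so that GFP and every UAS transgene were driven in cells that express Twist, the factor that specifies mesoderm. Dissociated cells were sorted by fluorescence into GFP positive (mesoderm) and GFP negative (the rest of the embryo), and all groups other than 3 wild type groups were GFP positive. The arrays carry a set number (1, 2 or 3), and wild type cells of both gates were run in every set. Set 1 added UAS-lambda-Top (activated EGFR), UAS-lambda-Htl with UAS-Dof (activated FGFR) and spi mutant embryos. Set 2 added UAS-Arm s10 (activated Armadillo, Arm), UAS-Ras1 Act (activated Ras), both of these together (Arm+Ras), UAS-Pnt P2VP16 (activated Pointed, Pnt), UAS-Tkv QD (activated Thickveins, Tkv) and wg mutant embryos. Set 3 added Dl mutant embryos, lmd mutant embryos and UAS-Notch intra (activated Notch). Embryos were aged at 25 °C to 5.5 to 7.5 h, except that the 3 genotypes of set 3 were aged to 6 to 8 h, so in set 3 age and genotype cannot be told apart against wild type. The mutants carry their lesion in the whole embryo and no allele is named, whereas the transgenes act in the Twist-expressing cells.

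EGFR is a receptor tyrosine kinase that signals through Ras and the MAP kinase cascade to the Ets factors Pointed and Anterior open. Its ligand Spitz, from spi, is made as a membrane precursor that Star, from S, carries out of the endoplasmic reticulum and that Rhomboid, from rho, cleaves. Argos, from aos, is a secreted protein that binds Spitz and keeps it from the receptor, and Kekkon 1, from kek1, is a transmembrane leucine-rich-repeat protein that binds the receptor and blocks it. Both aos and kek1 are known as transcriptional targets of the pathway in other fly tissues. Kek5 is a relative of Kekkon 1 that is best known as a modulator of BMP signalling in the wing. In the embryonic mesoderm, EGFR and FGFR signals act through Ras in choosing muscle and heart progenitors.

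Each value is the log2 summary of a probe set on an array. Levels were compared only for the same probe set, or the same list of markers, inside 1 set of arrays, because array medians ran from 4.57 to 4.62 in set 1, 4.17 to 4.27 in set 2 and 3.64 to 3.72 in set 3. Arrays of a group correlated with each other at r = 0.872 to 0.943 over the probe sets, and probe sets are no independent replicates. No label states separate collections of embryos, so p-values measure only the spread between these samples. Differences are given as log2 ± SE with 3 arrays per group from limma, and a probe set was called at an adjusted p (Benjamini-Hochberg, over 13966 probe sets) of 0.05 or less. The sort separated the germ layers: 6 of 6 measured mesoderm markers were higher and 6 of 7 ectoderm markers lower in GFP positive cells. Of the manipulated genes, the FGFR gene htl was higher by 1.87 ± 0.32 with activated FGFR. It was also called higher with Ras and Arm+Ras and called with EGFR, genotypes that carry no htl transgene. With activated Tkv, tkv was higher by 4.04 ± 0.17 at 143377_at and by 1.61 ± 0.65 at 154370_at (adjusted p = 0.167, not called). In lmd mutants lmd differed by 0.44 ± 0.12 (adjusted p = 0.149), which does not test their lesion. The arrays of wg mutants stood apart in the eIF-4a control, whose 3′ minus 5′ log2 difference was 3.29 to 3.59 against 2.01 to 2.24 in their wild type, and the set 3 genotypes reached 2.80 to 3.87 against 2.37 to 2.79.

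In wild type embryos kek5 was lower in mesoderm than in the rest of the embryo, and no other member had a gate call over the 3 sets together. Over the 18 wild type arrays, kek5 was lower in GFP positive cells by a log2 difference of -0.52 ± 0.13 (adjusted p = 0.00978), the only call among the 7 probe sets, against 16.7% of all probe sets called. In set 1 kek5 read 7.06, 7.08 and 6.88 in GFP positive against 7.09, 7.70 and 7.40 in GFP negative cells. In set 2 it read 4.08, 4.90 and 4.84 against 4.99, 5.68 and 5.38. In set 3 it read 6.46, 6.10 and 6.22 against 6.92, 6.62 and 6.49. The gates did not overlap in any set, although no set alone gave a call for kek5 (adjusted p = 0.19 to 0.24). The change is also smaller than 1.5-fold (1.43-fold). Fewer cells of a type and less RNA per cell cannot be told apart in sorted pools, and the ectoderm markers, moved with the gate: their mean level in GFP positive against GFP negative arrays was 5.43 to 5.78 against 7.06 to 7.39 in set 1, 4.83 to 5.19 against 6.28 to 6.39 in set 2 and 4.58 to 4.69 against 5.51 to 5.87 in set 3. Their part in the result was not tested.

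**Figure D1:**
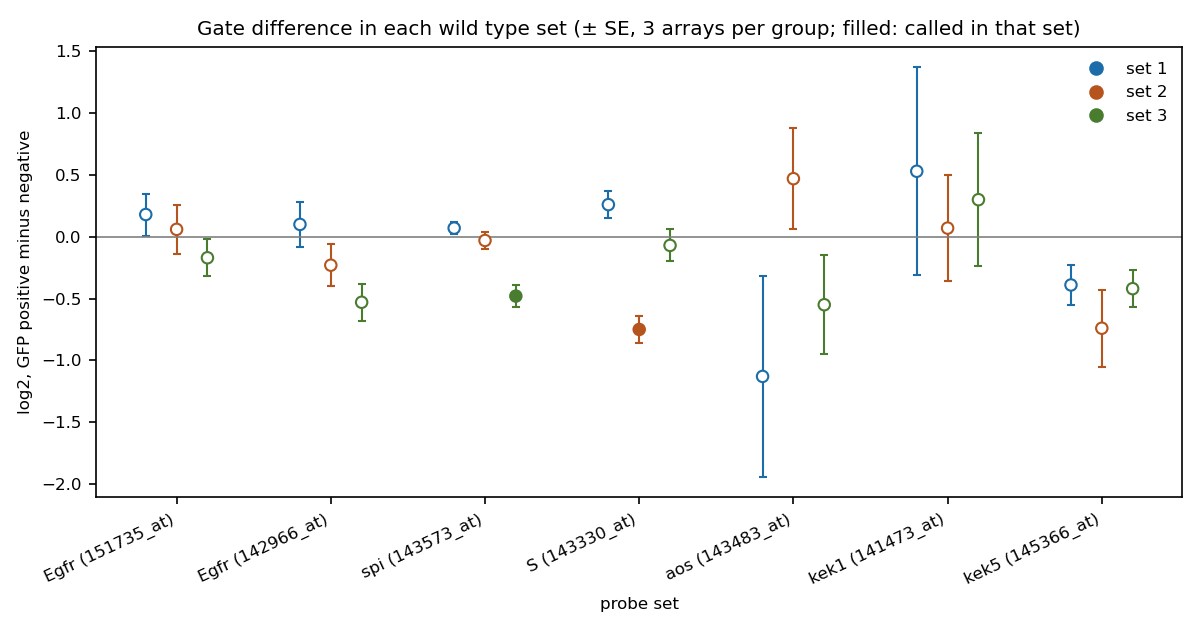
Difference between GFP positive and GFP negative wild type cells (log2, vertical axis) for the 7 probe sets (horizontal axis) in each set of arrays, with SE bars and 3 arrays per group. kek5 lies below 0 in every set, while spi lies below 0 most clearly in set 3 (-0.48) and S in set 2 (-0.75).

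Among the other 6 probe sets, Egfr differed by 0.02 (95% interval -0.21 to 0.26) at 151735_at and by -0.22 (-0.45 to 0.01) at 142966_at. The differences were -0.40 (-1.18 to 0.38) for aos and 0.30 (-0.49 to 1.09) for kek1, intervals that reach past a 2-fold change.

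For spi and S the gate difference itself depended on the set, and 2 of the 7 probe sets passed this F test against 7.94% of all probe sets. The spi difference was 0.07 in set 1, -0.03 in set 2 and -0.48 ± 0.09 in set 3 (adjusted p of the difference between sets = 0.00406). In set 3 spi read 8.13, 8.40 and 8.28 in GFP positive against 8.80, 8.73 and 8.71 in GFP negative cells, with no overlap. The S difference was 0.26 in set 1, -0.75 ± 0.11 in set 2 and -0.07 in set 3 (adjusted p = 0.00265). In set 2 S read 6.32, 6.10 and 6.24 in GFP positive against 6.97, 6.93 and 6.99 in GFP negative cells, again with no overlap. The GFP positive arrays of these comparisons are also the reference for every genotype of their set. The call for spi was lost without the variance trend (adjusted p = 0.127) and without the arrays with the letter A (adjusted p = 0.0799).

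Across the 12 genotypes, activation of EGFR, FGFR, Ras or Tkv went with higher readings of the Egfr probe sets and of spi. Of 84 results for the members, 29 were called against wild type, 24 higher and 5 lower. In set 1, 4 of the 7 probe sets were called with activated EGFR (3 higher and 1 lower, against 2.74% of all probe sets), 4 with activated FGFR (all higher, against 2.21%) and 0 in spi mutants (against 3.19%, and 0 at an unadjusted p under 0.05). In set 2, the counts were 1 with Arm (higher, 6.92% overall), 4 with Ras (all higher, 4.59%), 5 with Arm+Ras (all higher, 2.42%), 2 with Pnt (1 higher and 1 lower, 8.85%), 4 with Tkv (all higher, 8.38%) and 4 in wg mutants (1 higher and 3 lower, 26.6%). In set 3, they were 1 in Dl mutants (higher, 2.37%), 0 in lmd mutants (1.03%) and 0 with activated Notch (1.48%), with 1 and 2 probe sets at an unadjusted p under 0.05. The genotypes of a set share their wild type arrays, so their results are not independent of each other. The median of all probe sets lay between -0.018 and 0.021 in these and the direct comparisons, while the median over the 7 members was 0.70 with EGFR, 0.54 with FGFR, 0.63 with Ras, 1.02 with Arm+Ras and 0.80 with Tkv. It was 0.04 in spi mutants, -0.15 with Arm, 0.06 with Pnt, -0.44 in wg mutants, 0.19 in Dl mutants, 0.17 in lmd mutants and -0.29 with Notch.

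**Figure D2:**
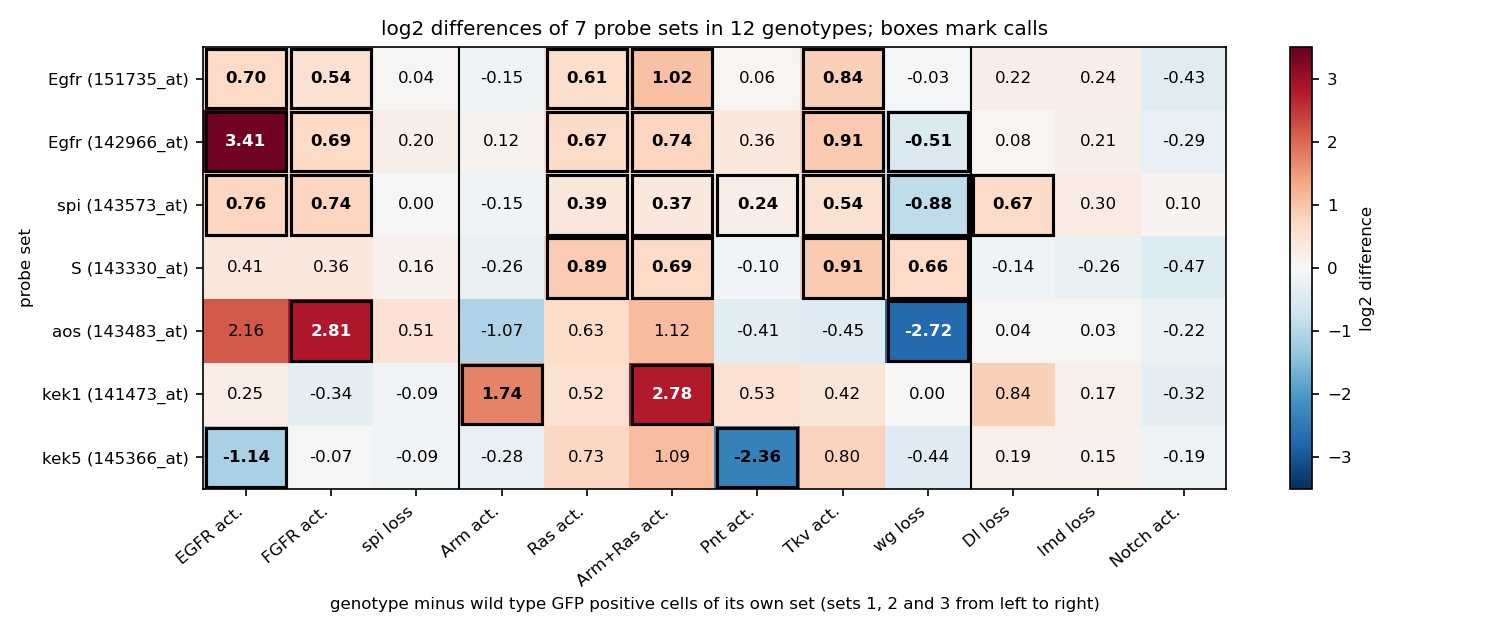
Log2 difference of each of the 7 probe sets (rows) between 12 genotypes (columns) and the wild type GFP positive cells of the same set; boxes mark calls. Boxes in the Egfr, spi and S rows are mostly positive, with spi called in 8 of 12 genotypes and the 3.41 of Egfr probe set 142966_at under activated EGFR as the highest value.

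The ligand gene spi had the most calls, 7 higher and 1 lower, and the tightest replicates. In set 1 its 3 arrays read 10.09, 10.16 and 10.12 with activated EGFR and 10.12, 10.13 and 10.08 with activated FGFR. In wild type they read 9.38, 9.31 and 9.40, and in spi mutants 9.35, 9.36 and 9.39. The activated receptors thus lay above every wild type array and overlapped each other, and spi mutants overlapped wild type. The rise was 0.76 ± 0.04 with EGFR (adjusted p = 5.04e-08) and 0.74 ± 0.04 with FGFR (adjusted p = 8.64e-08), about 1.7-fold. In spi mutants the difference was 0.00 ± 0.04 (adjusted p = 0.995, 95% interval -0.08 to 0.08). This probe set thus read the same in the mutants as in wild type, and it does not test the lesion, whose kind is not stated.

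In set 2 spi was ordered Tkv, Ras, Arm+Ras, Pnt, wild type, Arm and wg mutant. Tkv read 9.76, 9.78 and 9.81, Ras 9.62, 9.64 and 9.62, Arm+Ras 9.61, 9.58 and 9.64, and Pnt 9.39, 9.54 and 9.51. Wild type read 9.25, 9.15 and 9.32, Arm 9.07, 9.00 and 9.18, and wg mutants 8.47, 8.36 and 8.26. Ras and Arm+Ras overlapped each other, as did wild type and Arm, and the other neighbours in that order did not. The rises were 0.54 ± 0.06 for Tkv (adjusted p = 6.83e-06), 0.39 for Ras (adjusted p = 0.000361), 0.37 for Arm+Ras (adjusted p = 0.00105) and 0.24 for Pnt (adjusted p = 0.0137). The fall in wg mutants was the largest change of this gene, -0.88 ± 0.06 (adjusted p = 3.31e-10), and Arm differed by -0.15 ± 0.06 (adjusted p = 0.161). The calls for Ras and Arm+Ras were lost without the variance trend (adjusted p = 0.0591 and 0.12), and the rises in Ras, Arm+Ras, Pnt and Tkv were all under 1.5-fold. The Pnt call was also lost in a fit of only the 2 groups (adjusted p = 0.133), after quantile normalization (adjusted p = 0.0697), without the arrays with the letter A (adjusted p = 0.0502), without Pnt replicate 2B (0.21, adjusted p = 0.0677) or 2C (0.23, adjusted p = 0.057), and without wild type replicate 2B (0.19, adjusted p = 0.0903).

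Beside the wg result, 3 of 6 mesoderm markers were lower in wg mutants (mean level 5.76 to 6.11 against 6.77 to 6.82 in wild type). So were 3 of 7 ectoderm markers (3.57 to 4.07 against 4.83 to 5.19). Also lower were 2 of 4 ventral midline, 2 of 3 endoderm and yolk and 1 of 6 neural markers. Of all probe sets, 26.6% were called in these mutants, and the eIF-4a difference was the high one given above. The part of the markers and of the eIF-4a difference in the result was not tested.

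In set 3 spi read 8.91, 8.97 and 8.94 in Dl mutants, above the 8.13, 8.40 and 8.28 of wild type without overlap. The rise was 0.67 ± 0.08 (adjusted p = 0.000412), the only call for any member in that genotype. The lmd mutants read 8.67, 8.48 and 8.58, also above every wild type array but not called (0.30 ± 0.08, adjusted p = 0.132), and Notch overlapped wild type (8.45, 8.39 and 8.27). Beside the Dl result, 3 of 6 neural markers were higher in Dl mutants (mean level 6.38 to 6.69 against 5.57 to 5.89), 3 of 3 heat shock genes were lower (5.30 to 6.06 against 7.33 to 7.38), and the eIF-4a difference was 2.83 to 3.74 against 2.37 to 2.79. Of the 6 mesoderm markers, 1 was higher and 2 were lower in Dl mutants. Wild type GFP negative cells of set 3, in which neural markers were likewise high (6.29 to 6.65), read 8.80, 8.73 and 8.71 for spi. Neural markers were also higher in GFP negative cells in set 1 (7.39 to 7.50 against 6.94 to 7.01). They were so in set 2 too (6.28 to 6.35 against 5.42 to 6.01). The spi gate differences of these sets were 0.07 and -0.03. The part of the markers, the heat shock genes and the eIF-4a difference in the Dl result was not tested.

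S, which moves the Spitz precursor out of the endoplasmic reticulum, rose in 4 genotypes, all in set 2, and fell in none. Tkv read 7.24, 7.03 and 7.11, Ras 7.22, 6.92 and 7.18, Arm+Ras 6.91, 6.96 and 6.87, and wg mutants 6.66, 7.10 and 6.88. Wild type read 6.32, 6.10 and 6.24, Pnt 6.19, 6.26 and 5.90, and Arm 6.03, 5.77 and 6.08. The first 4 overlapped along the order, as did the last 3, and the groups above and below did not overlap. The rises were 0.91 ± 0.13 for Tkv (adjusted p = 0.000112), 0.89 for Ras (adjusted p = 0.000197), 0.69 for Arm+Ras (adjusted p = 0.00396) and 0.66 for wg mutants (adjusted p = 0.000507). The wg mutants were thus the genotype in which spi fell and S rose. The wild type reference of set 2 lay below the GFP negative cells of that set (6.97, 6.93 and 6.99), which stood in the range of the 4 risers. The part of this low reference in the rises was not tested. The Arm+Ras call was lost without the arrays with the letter A (adjusted p = 0.0714).

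In set 1 S read 8.01, 8.35 and 8.11 with EGFR, 8.11, 8.18 and 8.03 with FGFR and 7.86, 7.86 and 8.01 in spi mutants, all above the 7.69, 7.75 and 7.80 of wild type. None was called: the differences were 0.41 ± 0.10 (adjusted p = 0.0522), 0.36 ± 0.10 (adjusted p = 0.104) and 0.16 ± 0.10 (adjusted p = 0.456). The EGFR value crossed the threshold without EGFR replicate 1A (0.48, adjusted p = 0.0428), after quantile normalization (adjusted p = 0.0439) and among the brighter probe sets only (adjusted p = 0.0226). In set 3 the order ran downward from wild type (6.64, 6.90 and 6.73) to Notch (6.22, 6.26 and 6.37), whose arrays lay below wild type with a difference of -0.47 ± 0.15 (adjusted p = 0.194).

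With activated EGFR the 2 Egfr probe sets both rose, to very different extents. Probe set 142966_at read 10.08, 9.90 and 10.03 there against 6.72, 6.80 and 6.27 in wild type, a rise of 3.41 ± 0.14 (10.6-fold, adjusted p = 6.17e-09). Probe set 151735_at read 7.98, 8.03 and 7.89 against 7.21, 7.33 and 7.25, a rise of 0.70 ± 0.13 (1.63-fold, adjusted p = 0.0074). Neither probe set overlapped wild type. Where each probe set lies on the transcript is not given in the sources used here, so whether either reads the lambda-Top transgene was not tested. The 151735_at call was lost without the variance trend (adjusted p = 0.0504) and without the arrays with the letter A (adjusted p = 0.134).

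**Figure D3:**
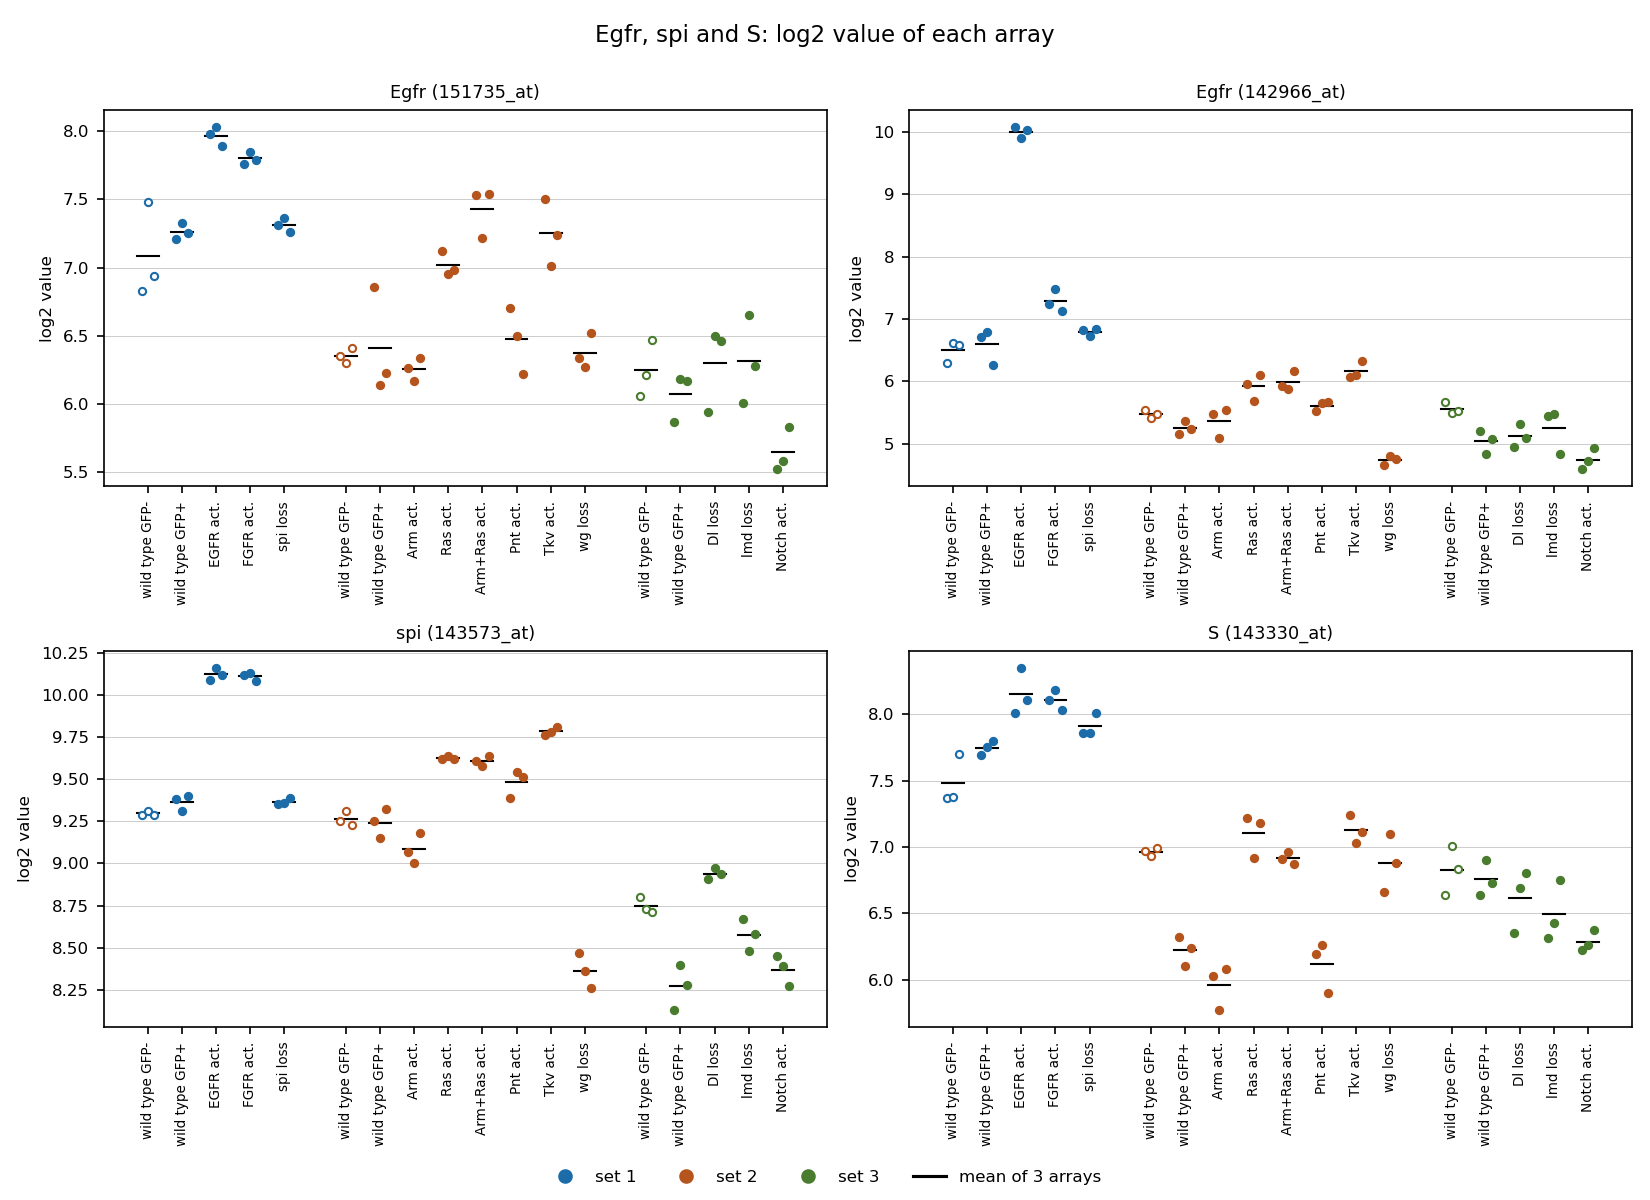
Log2 value of each array (points) and the mean of each group of 3 (black lines) for the 2 Egfr probe sets, spi and S, by group within sets 1, 2 and 3; open points are GFP negative cells. Activated EGFR stands near 10 at Egfr probe set 142966_at, and the spi arrays of activated EGFR and activated FGFR lie together above 10 while wild type lies between 9.31 and 9.40.

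Both probe sets of the receptor were called higher with activated FGFR, Ras, Arm+Ras and Tkv, and they parted in wg mutants, where 1 of them fell. With activated FGFR, 151735_at read 7.76, 7.85 and 7.79 and 142966_at 7.24, 7.49 and 7.13, both above every wild type array. The rises were 0.54 ± 0.13 (adjusted p = 0.0453) and 0.69 ± 0.14 (adjusted p = 0.015). The first call was lost when any of the 6 arrays was left out, namely FGFR replicate 1A (0.56), 1B (0.51) or 1C (0.54) or wild type replicate 1A (0.51), 1B (0.57) or 1C (0.53), with adjusted p = 0.0709 to 0.158. The second was lost without FGFR replicate 1B (0.59, adjusted p = 0.0824) and without wild type replicate 1C (0.53, adjusted p = 0.0519). Both were also lost without the variance trend (adjusted p = 0.155 and 0.0695) and without the arrays with the letter A (adjusted p = 0.227 and 0.115), and the second in a fit of only the 2 groups (adjusted p = 0.148). In spi mutants, 151735_at differed by 0.04 (95% interval -0.23 to 0.32) and 142966_at by 0.20 (-0.09 to 0.49).

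In set 2, Arm+Ras, Tkv and Ras stood above the other groups at both Egfr probe sets. At 151735_at, Arm+Ras read 7.53, 7.22 and 7.54, Tkv 7.50, 7.01 and 7.24, and Ras 7.12, 6.95 and 6.98. Wild type read 6.86, 6.14 and 6.23, with Pnt, Arm and wg mutants overlapping it. The rises there were 1.02 ± 0.17 with Arm+Ras (adjusted p = 0.00114), 0.84 with Tkv (adjusted p = 0.00272) and 0.61 with Ras (adjusted p = 0.0444).

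At 142966_at, Tkv read 6.07, 6.10 and 6.32, Arm+Ras 5.93, 5.88 and 6.16, and Ras 5.96, 5.69 and 6.11, against 5.16, 5.36 and 5.23 in wild type. The rises were 0.91 ± 0.16 with Tkv (adjusted p = 0.000669), 0.74 with Arm+Ras (adjusted p = 0.0113) and 0.67 with Ras (adjusted p = 0.0141). The 3 genotypes overlapped along this order and did not overlap the groups below them. The wg mutants read 4.66, 4.80 and 4.76, below all other groups of the set, a fall of -0.51 ± 0.16 (adjusted p = 0.0204) that 151735_at did not show (-0.03 ± 0.17, adjusted p = 0.923).

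Several of these receptor calls were close to the threshold. For Ras at 151735_at the call was lost without Ras replicate 2A (0.55), 2B (0.64) or 2C (0.63) and without wild type replicate 2B (0.47) or 2C (0.52), with adjusted p = 0.087 to 0.221, and for Ras at 142966_at without Ras replicate 2A (0.65) or 2C (0.57) and without wild type replicate 2A (0.63) or 2C (0.66), with adjusted p = 0.0546 to 0.0947. For Arm+Ras at 142966_at it was lost without Arm+Ras replicate 2C (0.65, adjusted p = 0.0858) and without wild type replicate 2A (0.69, adjusted p = 0.0506). For wg mutants at 142966_at it was lost without wg replicate 2A (-0.47, adjusted p = 0.0589) and without wild type replicate 2B (-0.45, adjusted p = 0.0817), and after quantile normalization (adjusted p = 0.0529). A fit of only the 2 groups lost the calls for Ras (adjusted p = 0.159 and 0.078) and Arm+Ras (adjusted p = 0.0632 and 0.0596) at 151735_at and 142966_at in turn, for Tkv at 151735_at (adjusted p = 0.0609) and for wg mutants at 142966_at (adjusted p = 0.169). The fit without the variance trend lost Ras at 151735_at (adjusted p = 0.0949), and leaving out the letter A arrays lost Ras (adjusted p = 0.275), Arm+Ras (adjusted p = 0.233) and wg mutants (adjusted p = 0.162) at 142966_at.

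Hemocyte and fat body markers moved with the same set 2 genotypes, 2 of 7 higher with Ras, 2 with Arm+Ras and 3 with Tkv. Their mean level was 5.77 to 6.34 over those 9 arrays against 4.94 to 5.22 in wild type. With activated EGFR and activated FGFR, 0 of 7 were called. Mesoderm markers moved too: with EGFR 2 of 6 were higher and 1 lower (mean level 8.21 to 8.29 against 7.66 to 7.75), and with FGFR 1 was higher and 1 lower (8.00 to 8.13). With Ras, Arm+Ras and Tkv 1 of 6 was higher each (7.55 to 7.71, 7.62 to 7.80 and 7.25 to 7.30 against 6.77 to 6.82), the called one being htl with Ras and Arm+Ras and bap with Tkv. Of the 6 neural markers, nerfin-1 was lower with EGFR and nerfin-1 and pros with FGFR, and 2 and 1 of 3 heat shock genes were lower in these genotypes. The part of these in the results was not tested.

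In set 3 the receptor was called in no genotype. Notch read lowest at both probe sets (5.52, 5.58 and 5.83 at 151735_at against 5.87, 6.18 and 6.17 in wild type), with differences of -0.43 ± 0.19 (adjusted p = 0.474) and -0.29 ± 0.19 (adjusted p = 0.719).

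The secreted inhibitor gene aos rose with activated FGFR and fell in wg mutants, and its arrays scattered widely. With EGFR, Ras and Arm+Ras its arrays lay above every wild type array without a call. In set 1 FGFR read 5.40, 5.68 and 5.72 and EGFR 4.68, 5.18 and 4.98. Wild type read 3.22, 4.24 and 0.91 and spi mutants 2.56, 3.29 and 4.03. Every array of the activated receptors lay above every wild type array, FGFR lay above EGFR without overlap, and 1 wild type array, replicate 1C, lay far below the other 2. The rise with FGFR was 2.81 ± 0.63 (7.02-fold, adjusted p = 0.0319), and the difference with EGFR was 2.16 ± 0.63 (adjusted p = 0.103). Without wild type replicate 1C the FGFR difference was 1.87 (adjusted p = 0.0484). The FGFR call was lost without FGFR replicate 1A (2.91, adjusted p = 0.0724), 1B (2.77, adjusted p = 0.115) or 1C (2.75, adjusted p = 0.107), and without wild type replicate 1A (3.03, adjusted p = 0.0589). It was also lost without the variance trend (adjusted p = 0.0673), in a fit of only the 2 groups (adjusted p = 0.211) and without the arrays with the letter A (adjusted p = 0.191). The EGFR difference was 1.22 (adjusted p = 0.219) without wild type replicate 1C, and it was called without wild type replicate 1B (2.88, adjusted p = 0.018).

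In set 2 aos fell in wg mutants, which read 3.12, -0.04 and 0.63 against 4.35, 3.51 and 4.01 in wild type. The fall was -2.72 ± 0.68 (adjusted p = 0.00437), and it was lost in a fit of only the 2 groups (adjusted p = 0.0606). Arm+Ras read 5.35, 4.77 and 5.11 and Ras 4.84, 4.38 and 4.54, above every wild type array, with differences of 1.12 ± 0.68 (adjusted p = 0.667) and 0.63 ± 0.68 (adjusted p = 0.806). Arm lay below every wild type array (2.94, 2.43 and 3.29, a difference of -1.07 ± 0.68, adjusted p = 0.472), and 1 of the 3 Pnt arrays stood far below the others (4.48, 4.40 and 1.75). In set 3 all GFP positive groups of aos overlapped, with differences of -0.22 to 0.04. The markers and the eIF-4a difference given for spi in wg mutants moved with this fall too.

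**Figure D4:**
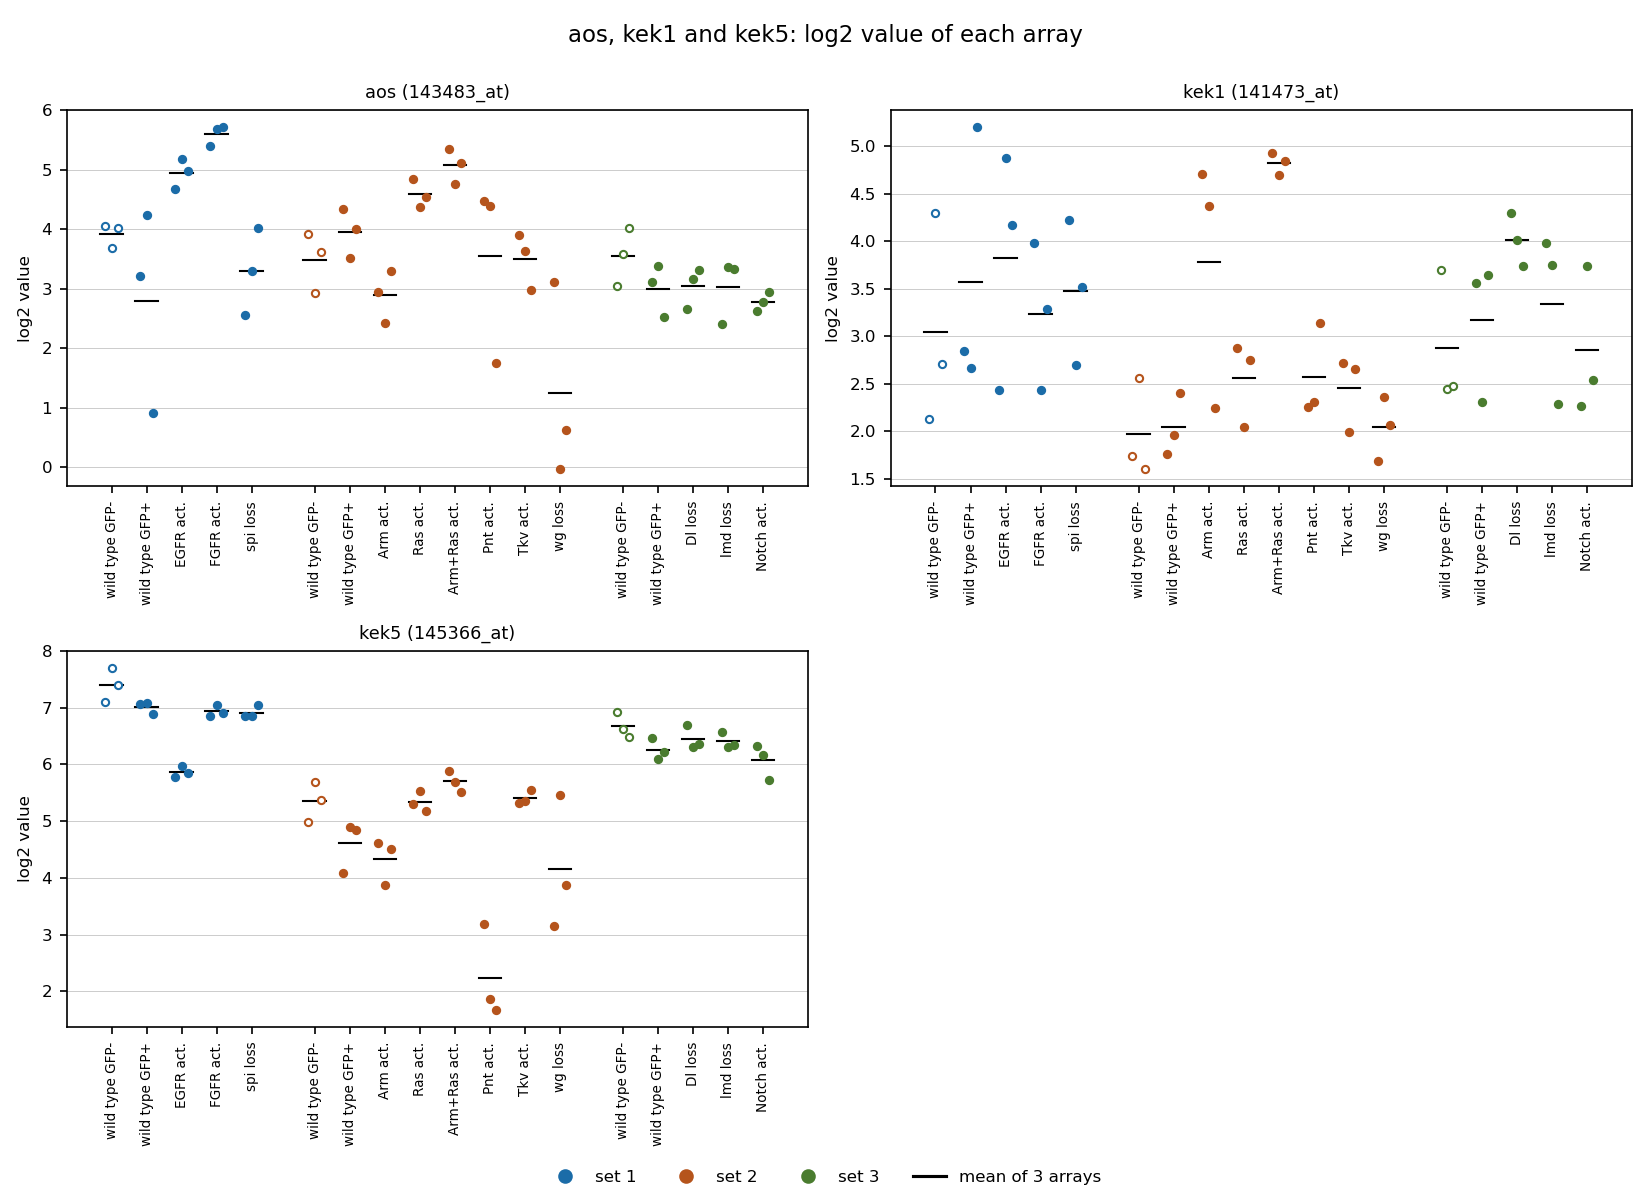
Log2 value of each array (points) and the mean of each group of 3 (black lines) for aos, kek1 and kek5, by group within sets 1, 2 and 3; open points are GFP negative cells. The aos arrays of activated EGFR and activated FGFR lie above the scattered wild type arrays. Within set 2 kek1 is highest and tightest in Arm+Ras, and kek5 is low with activated EGFR in set 1 and with activated Pnt in set 2.

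The receptor-binding inhibitor gene kek1 rose in 2 genotypes, both with activated Arm. In set 2 Arm+Ras read 4.93, 4.70 and 4.84 and Arm 4.71, 4.37 and 2.25. Wild type read 1.76, 1.96 and 2.40, Ras 2.88, 2.05 and 2.75, and Pnt, Tkv and wg mutants lay between 1.69 and 3.14. All 3 Arm+Ras arrays and 2 of the 3 Arm arrays stood above this band, and the remaining Arm array lay inside the range of wild type. The rise was 2.78 ± 0.51 with Arm+Ras (6.89-fold, adjusted p = 0.00279) and 1.74 ± 0.51 with Arm (adjusted p = 0.0432), and Ras alone differed by 0.52 ± 0.51 (adjusted p = 0.768).

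The Arm call for kek1 was lost without Arm replicate 2A (1.27, adjusted p = 0.184) or 2B (1.44, adjusted p = 0.195) and without wild type replicate 2A (1.60, adjusted p = 0.162), 2B (1.70, adjusted p = 0.111) or 2C (1.92, adjusted p = 0.0608). It was also lost in a fit of only the 2 groups (adjusted p = 0.263) and without the arrays with the letter A (adjusted p = 0.521), and the Arm+Ras call in the last of these (adjusted p = 0.131). Neural markers were lower with Arm (3 of 6, mean level 4.67 to 5.07 against 5.42 to 6.01) and not with Arm+Ras (0 of 6 called, 5.79 to 6.04), and their part in the result was not tested.

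In sets 1 and 3 kek1 varied as much within groups as between them. Wild type in set 1 read 2.84, 2.67 and 5.20 and EGFR 2.43, 4.87 and 4.17, and the 3 differences in that set ran from -0.34 to 0.25 with an SE of 0.81. Activation of the receptor thus gave no kek1 change that these arrays could resolve (95% interval -1.49 to 1.99 with EGFR). In set 3 the Dl mutants (4.30, 4.01 and 3.74) lay above the wild type arrays (3.56, 2.31 and 3.64) by 0.84 ± 0.56 (adjusted p = 0.638).

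The kek1 relative kek5 fell in 2 genotypes and rose in none. In set 1 EGFR read 5.77, 5.97 and 5.84 against 7.06, 7.08 and 6.88 in wild type, while FGFR (6.86, 7.04 and 6.90) and spi mutants (6.85, 6.85 and 7.04) overlapped wild type. The fall with EGFR was -1.14 ± 0.13 (2.21-fold, adjusted p = 0.000257), and FGFR differed by -0.07 (95% interval -0.36 to 0.21). In set 2 Pnt read 3.19, 1.87 and 1.67 against 4.08, 4.90 and 4.84 in wild type, a fall of -2.36 ± 0.45 (5.14-fold, adjusted p = 0.00114). Both falls were called under each alternative fit and without any 1 array.

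Arm+Ras (5.89, 5.69 and 5.52), Tkv (5.32, 5.35 and 5.55) and Ras (5.30, 5.53 and 5.18) lay above every wild type array of kek5 without a call, by 1.09, 0.80 and 0.73 with an SE of 0.45. The wg mutants read 3.15, 5.46 and 3.88, a difference of -0.44 (adjusted p = 0.535) that became -1.09 (adjusted p = 0.0497) without wg replicate 2B. In set 3 the 3 differences ran from -0.19 to 0.19. Beside the Pnt fall, 3 of 7 ectoderm markers were lower with Pnt (mean level 3.13 to 3.60 against 4.83 to 5.19) and so were 2 of 3 heat shock genes. Beside the EGFR fall, 2 of 3 heat shock genes were lower (5.15 to 5.43 against 6.18 to 6.51) and 0 of 7 ectoderm markers were called. Their part in the results was not tested.

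The activated receptors were then set against each other directly. The 2 genotypes differ in their transgenes, lambda-Top against lambda-Htl with Dof, so the contrast does not isolate signalling. Of the 7 probe sets, 2 were called against 0.229% of all probe sets. Egfr 142966_at was higher with EGFR by 2.72 ± 0.14 (adjusted p = 2.47e-07), and whether it reads the lambda-Top transgene was not tested. The other, kek5, was lower with EGFR by a log2 difference of -1.07 ± 0.13 (adjusted p = 0.00405). The 2 genotypes did not differ detectably in spi (0.02, 95% interval -0.06 to 0.10), in S (0.05, -0.17 to 0.27) or in Egfr 151735_at (0.17, -0.11 to 0.44), although the arrays of the last did not overlap. The intervals for aos (-0.65, -2.01 to 0.70) and kek1 (0.59, -1.15 to 2.33) leave room for differences of over 2-fold. The kek5 call was lost in a fit of only the 2 groups (adjusted p = 0.0898) and without the arrays with the letter A (adjusted p = 0.16).

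Activated Pnt, a transcription factor at the end of the pathway, was set against activated Ras, which acts above it. In this comparison 3 probe sets were called, all lower with Pnt, against 9.77% of all probe sets. They were kek5 (-3.09 ± 0.45, adjusted p = 6.7e-05), S (-0.99 ± 0.13, adjusted p = 2.39e-05) and Egfr 151735_at (-0.55 ± 0.17, adjusted p = 0.0475). For spi the difference was -0.15 (95% interval -0.28 to -0.02, adjusted p = 0.157), with every Pnt array below every Ras array. The Egfr call was lost without Pnt replicate 2B (-0.56) or 2C (-0.42) and without Ras replicate 2A (-0.49), 2B (-0.58) or 2C (-0.57), with adjusted p = 0.0845 to 0.221. It was lost too without the variance trend (adjusted p = 0.086), in a fit of only the 2 groups (adjusted p = 0.0827), after quantile normalization (adjusted p = 0.0533) and without the arrays with the letter A (adjusted p = 0.0604). Along with these falls, 4 of 7 ectoderm markers (mean level 3.13 to 3.60 with Pnt against 4.67 to 4.71 with Ras), 4 of 6 neural markers (4.86 to 5.22 against 6.07 to 6.19), 3 of 7 hemocyte and fat body markers (4.94 to 5.22 against 5.77 to 6.11) and 2 of 6 mesoderm markers (6.80 to 7.01 against 7.55 to 7.71) were lower with Pnt. Their part in the results was not tested.

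Arm+Ras was set against each of its parts. Against Ras alone, 1 of 7 probe sets was called (1.6% of all), kek1, higher by 2.26 ± 0.51 (adjusted p = 0.0234). For spi the difference was -0.02 (95% interval -0.15 to 0.11), for S -0.20 (-0.47 to 0.08) and for Egfr 142966_at 0.07 (-0.26 to 0.40). At the other receptor probe set, 151735_at, it was 0.41 ± 0.17 (0.06 to 0.77, adjusted p = 0.326), and the arrays did not overlap. The differences for aos (0.49, -0.93 to 1.92) and kek5 (0.36, -0.58 to 1.30) had wide intervals. The kek1 call was lost without Arm+Ras replicate 2A (2.21), 2B (2.33) or 2C (2.26) and without Ras replicate 2B (2.01) or 2C (2.36), with adjusted p = 0.0633 to 0.119, and without the arrays with the letter A (adjusted p = 0.212).

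Against Arm alone, 4 of 7 were called (7.2% of all), each higher with Arm+Ras. These were Egfr 151735_at by 1.17 ± 0.17 (adjusted p = 0.000114), Egfr 142966_at by 0.62 ± 0.16 (adjusted p = 0.0177), spi by 0.52 ± 0.06 (adjusted p = 8.59e-06) and S by 0.95 ± 0.13 (adjusted p = 5.96e-05). The difference was 1.04 ± 0.51 for kek1 (adjusted p = 0.282), 2.19 ± 0.68 for aos (adjusted p = 0.0578) and 1.37 ± 0.45 for kek5 (adjusted p = 0.075), and the aos and kek5 arrays of the 2 genotypes did not overlap. The 142966_at call was lost without Arm replicate 2B (0.48, adjusted p = 0.106) and Arm+Ras replicate 2C (0.53, adjusted p = 0.105), in a fit of only the 2 groups (adjusted p = 0.139) and without the arrays with the letter A (adjusted p = 0.127). Along with these rises, 3 of 6 neural markers (mean level 5.79 to 6.04 with Arm+Ras against 4.67 to 5.07 with Arm), 1 of 7 ectoderm markers (Nrg, 4.76 to 4.97 against 4.23 to 4.48) and 1 of 6 mesoderm markers (htl, 7.62 to 7.80 against 7.05 to 7.13) were higher with Arm+Ras, and their part in the results was not tested.

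**Figure D5:**
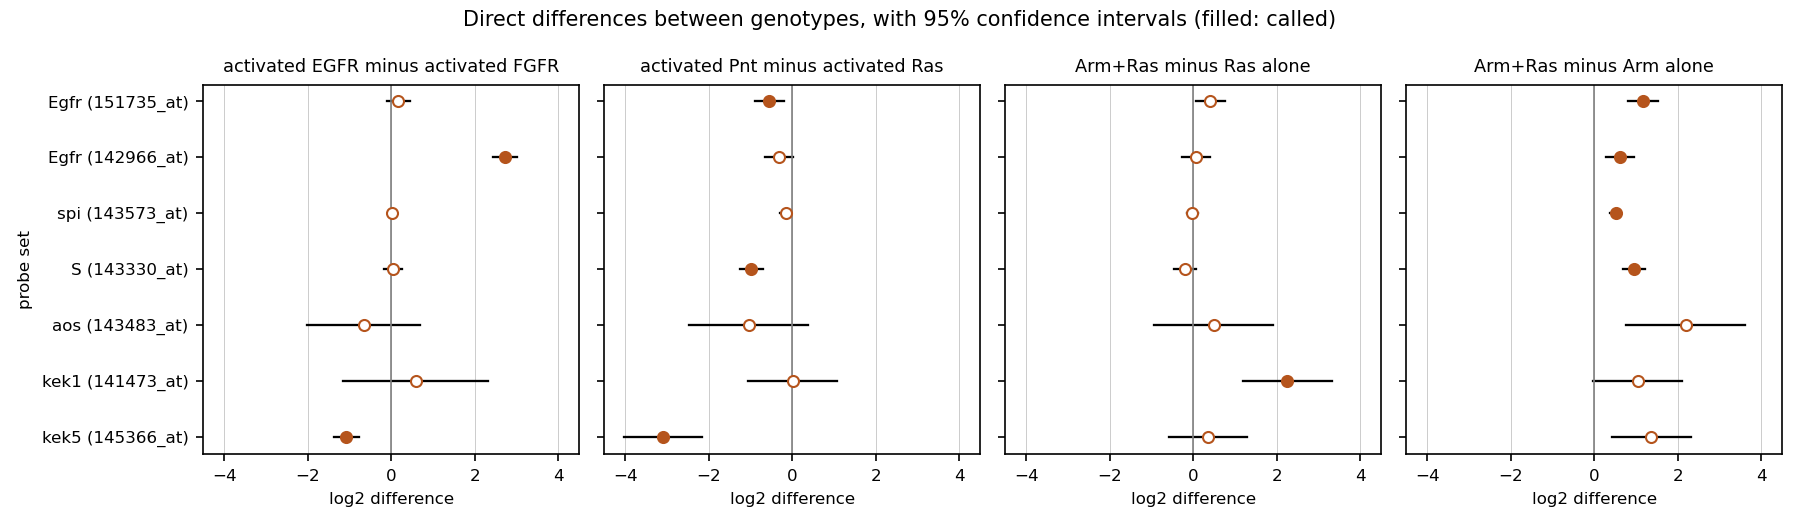
Direct log2 differences between genotypes of the same set (horizontal axes) for the 7 probe sets (vertical axis), with 95% confidence intervals; filled points are calls. The spi intervals are the narrowest and include 0 for EGFR minus FGFR and for Arm+Ras minus Ras, while kek5 lies below 0 for EGFR minus FGFR and for Pnt minus Ras.

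The 3 genotypes of set 3 have the same labelled age, so the direct comparisons among them do not carry the age difference. In Notch against Dl mutants, 1 of 7 probe sets was called (5.36% of all), spi, lower with Notch by a log2 difference of -0.57 ± 0.08 (adjusted p = 0.000713). In Dl against lmd mutants, 1 of 7 was called (1.7% of all), again spi, higher in Dl mutants by 0.37 ± 0.08 (adjusted p = 0.0392). In Notch against lmd mutants, 0 of 7 were called (3.61% of all), and 3 had an unadjusted p under 0.05. The Dl and lmd call was lost without Dl replicate 3A (0.38), 3B (0.36) or 3C (0.37) and without lmd replicate 3B (0.32) or 3C (0.37), with adjusted p = 0.0758 to 0.145, and without the variance trend (adjusted p = 0.35) or in a fit of only the 2 groups (adjusted p = 0.174).

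Egfr 151735_at was lower with Notch by a log2 difference of -0.66 ± 0.19 against Dl mutants (adjusted p = 0.0689) and of -0.67 ± 0.19 against lmd mutants (adjusted p = 0.082), without overlap in either. These became calls without Dl replicate 3A (-0.84, adjusted p = 0.0237) and without lmd replicate 3A (-0.82, adjusted p = 0.043). They were also called among the brighter probe sets (adjusted p = 0.0354 and 0.0437) and without the arrays with the letter A (adjusted p = 0.0281 and 0.0412). A block for the replicate letter gave both calls too (adjusted p = 0.00606 and 0.00782). The neural markers differed along with spi. Of 6, 5 were lower in Notch than in Dl mutants and 4 were higher in Dl than in lmd mutants. In Notch against lmd mutants, without a spi call, 2 of 6 were lower. Other markers moved too. In Notch against Dl mutants, 3 of 6 mesoderm, 3 of 7 hemocyte and fat body and 1 of 7 ectoderm markers were called. Heat shock genes were lower there, 2 of 3. In Dl against lmd mutants, 2 of 6 mesoderm, 1 of 7 hemocyte and fat body and 1 of 3 heat shock genes were lower. The part of these in the spi results was not tested.

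Among other ligand and processing genes, 2 of 7 were measured. Both, grk and Krn, encode EGFR ligands. In 12 genotypes the only call was grk in wg mutants (0.77 ± 0.28, adjusted p = 0.048), where 26.6% of all probe sets were called. Of the other Kekkon genes, 4 of 4 were measured. The only call was kek4, higher in spi mutants by 3.18 ± 0.55 (adjusted p = 0.00585), against 3.19% of all probe sets. It was thus the spi mutants, in which no member was called, that held the only call among the other Kekkon genes.

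Of the receptor-proximal and Ras cascade genes, 11 of 14 were measured. Cbl, a ubiquitin ligase that down-regulates the activated receptor, rose with EGFR (0.60 ± 0.06, adjusted p = 2.8e-05), FGFR (0.60), Ras (0.92), Arm+Ras (1.02) and in Dl mutants (1.06), but also in spi mutants (0.59 ± 0.06, adjusted p = 4.63e-05). It was the only call of this list in 5 of these 6 genotypes, and in Ras the adaptor gene drk rose too (0.77 ± 0.18). EGFR, FGFR and spi mutants are all the genotypes of set 1, and their Cbl rises were taken against the same wild type arrays. The part of this shared reference in those rises was not tested. The wg mutants had 5 of 11 called, against 26.6% of all probe sets, with drk higher (1.59) and Dsor1, the MAP kinase kinase gene (-1.17), Shc (-0.95) and ksr (-2.18) among the 4 lower.

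All 9 nuclear effectors, intracellular inhibitors and targets were measured. With EGFR 4 of 9 rose and 1 fell (against 2.74% of all probe sets called), with FGFR 4 rose and 1 fell (2.21%), with Ras 5 rose (4.59%) and with Arm+Ras 4 rose (2.42%). The risers common to these 4 genotypes were sty, the gene of the Sprouty inhibitor, aop, edl, the gene of a regulator of Pointed, and phyl. With EGFR they were higher by 0.91, 0.58, 1.17 and 1.09, and with Ras by 1.08, 1.68, 1.17 and 0.78. The list medians were 0.41 with EGFR, 0.48 with FGFR, 0.86 with Ras and 0.86 with Arm+Ras, against the medians of all probe sets given above.

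With Pnt (8.85% of all probe sets called) 3 of these 9 rose (edl by 2.06 ± 0.10, aop by 0.91 and Mkp3, a MAP kinase phosphatase gene, by 0.85) and cic fell (-2.71 ± 0.47). The spi mutants (3.19%) had 2 falls, cic (-0.80 ± 0.11) and Mkp3 (-0.69 ± 0.14). Tkv (8.38%) had 2 rises, aop (1.32) and sty (0.77), Dl mutants (2.37%) had 2 rises, edl (1.15) and phyl (1.07), and 1 fall, bowl (-1.26), and Notch (1.48%) had 2 falls, edl (-1.18) and phyl (-1.11). Arm (6.92%) had 1 fall, edl (-0.59), lmd mutants (1.03%) 1 rise, aop (0.55), and wg mutants (26.6%) 2 rises and 3 falls. Edl thus fell with Notch and rose in Dl mutants, and spi rose in Dl mutants and had no call with Notch.

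The genes whose patterns lay nearest to each member were taken over the 45 GFP positive arrays, each centred on its set, among 7986 genes with an SD of at least 0.4. The arrays share groups and wild type references, and the correlations are a description. For Egfr (151735_at, SD 0.41) these were bib (r = 0.87), kst (0.84) and 18w (0.84). For aos (SD 1.21) they were Sulf1 (0.78), goe (0.72) and wake (0.70), and for kek5 (SD 0.87) CG17233 (0.76), Pcif1 (0.75) and Vha55 (0.74). For kek1 (SD 0.96) the nearest were further off, Cht2 (0.56), zye (0.54) and HnRNP-K (0.51). The SDs of spi (0.39) and S (0.36) were below the minimum, and no gene is named for them.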

How the data were processed

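RNA of sorted embryonic cells was measured on 54 arrays, all used here. The deposited values are log2 summaries of probe sets. Per the submitters' processing notes, the affy package was used. Its version, the background correction and the normalization are not given in the sources used here, and the log base was inferred from the values (-3.076 to 13.581). Of 14010 probe sets, 44 controls were left out and 13966 tested without a filter on low values; 10 values were missing. Symbols came from GEO's platform annotation, updated through RefSeq (12443 probe sets with 1 symbol, 327 with several, 1196 with none). Members and lists were chosen with earlier results of these data known, and every member probe set is named. Of the pathway lists, called members were counted over the probe set with the highest mean per gene and up to 4 named. The genes rho and vn were not analysed here.

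The fits (limma 3.58.1, R 4.3.3) gave every group of a set its mean, by lmFit and eBayes with a trend on the mean level. The gate was fitted over 18 wild type arrays, blocked by set, and sets were compared by an F test. Tests are two-sided, adjusted over all probe sets, at 0.05. Fits were tested on simulated arrays. Alternatives were quantile normalization, no variance trend, a block for the replicate letter, fits of just the 2 groups, brighter probe sets, a 1.5-fold minimum, each set alone for the gate, the mean over probe sets of a gene, no arrays with the letter A, and each array left out. Figures were drawn with matplotlib 3.10.9 (Python 3.11.15). The number of arrays limits the precision.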

Additional observations from a re-analysis of the deposited data

Results flagged for a closer look

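The gate difference of spi differed between the 3 wild type sets by an F test of the difference itself (adjusted p = 0.00406), at 0.07, -0.03 and -0.48 in sets 1, 2 and 3. The gate difference of S did so as well (adjusted p = 0.00265), at 0.26, -0.75 and -0.07.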

How the results depend on the processing

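Of the member results, 44 were called and 103 were not. Of the 44, 42 have a sign and kept it under every alternative run, and 2 are F tests without one; 17 kept the call under every one and 31 without any 1 array; 59 values of uncalled results changed sign. Counts of called members moved by over 1.5 times as follows. Without the variance trend: between-set gate difference 1, FGFR 1, Ras 2, Pnt 1, Dl against lmd 0. With only the 2 groups: FGFR 2, Arm 0, Ras 2, Arm+Ras 3, Pnt 1, wg 2, EGFR against FGFR 1, Dl against lmd 0. Without the arrays with the letter A: between-set gate difference 1, FGFR 1, Arm 0, Arm+Ras 2, Pnt 1, EGFR against FGFR 1, Arm+Ras against Ras 0, Notch against Dl 2, Notch against lmd 1. Among brighter probe sets, which leave out, of the called results, those of kek1 in set 2 and of aos in sets 1 and 2: Arm 0, Arm+Ras against Ras 0, Notch against Dl 2, Notch against lmd 1. With a 1.5-fold minimum: gate 0, Pnt 1, Notch against Dl 0, Dl against lmd 0. Quantile normalization gave 1 for Pnt and shifted the all-probe-set median by at most 0.029, and set 1 alone gave 0 for the gate. With the replicate block the counts were 0 for Arm, 1 for lmd, 1 for Notch, 3 for Notch against Dl and 1 for Notch against lmd. It ended the call of kek1 with Arm (adjusted p = 0.0537). It gave calls to S with EGFR (0.0414), spi in lmd mutants (0.0495), S with Notch (0.0344) and aos in Arm+Ras against Arm (0.0293). Calls also came for Egfr 151735_at in Notch against Dl (0.00606) and lmd mutants (0.00782), and for kek5 in Notch against Dl mutants (0.0428). Same-letter correlations were low (r from -0.0248 to 0.142), and in 0 of 22 comparisons did every pair exceed 0.1. In set 3, however, the letter A pairs ran from 0.111 to 0.142, against -0.00108 to 0.0483 for letters B and C. The letter A array also had the lowest eIF-4a difference in each group of set 3. In wild type GFP positive cells it was 2.37 against 2.79 and 2.69. What the letter A carries in set 3 was not tested. With an array left out, counts ran from 1 to 1 (gate), 2 to 2 (between sets), 4 to 5 (EGFR), 1 to 3 (FGFR), 0 to 0 (spi), 0 to 1 (Arm), 2 to 3 (Ras), 4 to 5 (Arm+Ras), 1 to 2 (Pnt), 4 to 4 (Tkv), 3 to 5 (wg), 1 to 1 (Dl), 0 to 0 (lmd and Notch), 2 to 2 (EGFR against FGFR), 2 to 3 (Pnt against Ras), 0 to 1 (Arm+Ras against Ras), 3 to 4 (Arm+Ras against Arm), 1 to 2 (Notch against Dl) and 0 to 1 (Notch against lmd, Dl against lmd). The cause of these moves was not tested, except that fits with fewer arrays have fewer residual degrees of freedom. Low probe sets (aos, kek1) had SEs of 0.37 to 0.81, so a missing call there bounds little.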
